A study of Homo sapiens with 6 samples.

Results

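Immune checkpoint ligands are proteins on, or released by, a cell that bind receptors of lymphocytes, natural killer cells or macrophages and turn their activity down or up. A set of 10 genes was followed: SIGLEC15, CD274, PDCD1LG2, CD276, PVR, NECTIN2, CD47, NT5E, LGALS9 and TNFRSF14. They were matched by gene name in a table of 58825 genes, and 9 of them were among the 12714 genes tested; LGALS9 was not, because fewer than 3 libraries reached 1 FPKM (fragments per kilobase of transcript, scaled to library size). The members were chosen by their FPKM values in the shDLGAP5-1 and shNC-1 libraries, among known checkpoint ligands, so the values of the members are given as a description and carry no test. Where a member is said to pass or miss the adjusted threshold, this only places it in the fit over all genes. It is not evidence for or against a difference in that member.

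The messenger RNA came from T24, an established human bladder carcinoma line, in 2 groups of 3 libraries. Cells of the shDLGAP5-1 group carried a short hairpin RNA against DLGAP5, whose protein binds spindle microtubules in mitosis. Cells of the shNC-1 group carried a control hairpin, and their genotype is labelled as wild type. No drug or cytokine is named for either group, and both were grown in the same serum-containing medium. The model is limited to 1 cell line and 1 hairpin in each group, so an effect of the hairpin sequence and an effect of DLGAP5 loss cannot be told apart. Nothing in the labels ties the 3 libraries of a group to separate cultures. The p-values therefore reflect only how far these samples spread, and that spread may be technical. No immune cells are named in the labels, and the values are levels of transcripts, not of proteins.

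CD274 (PD-L1) and PDCD1LG2 (PD-L2) bind PD-1 on T cells, and SIGLEC15 and CD276 (B7-H3) also restrain T cells through receptors that are less well defined. PVR and NECTIN2 bind both the inhibitory receptor TIGIT and the activating receptor CD226, CD47 tells macrophages not to engulf the cell, and NT5E (CD73) makes adenosine, which dampens lymphocytes. Blockade of PD-1 or PD-L1 is used to treat urothelial carcinoma, and interferon gamma is the best known inducer of CD274.

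All shDLGAP5-1 libraries held less DLGAP5 than any shNC-1 library, in the direction of the labels. It had 5.03, 4.0 and 7.51 FPKM in shDLGAP5-1 replicates 1 to 3 and 32.98, 32.70 and 29.68 FPKM in shNC-1 replicates 1 to 3, or 82.7% lower (log2 fold change −2.37, standard error 0.19, limma adjusted p = 0.000894). The exact two-sided permutation p was 0.1, the smallest that 3 against 3 libraries allow. Estimated depth was 13700000 to 18300000 fragments in shDLGAP5-1 and 21600000 to 27700000 in shNC-1, so genes of low level are measured with more error in shDLGAP5-1. Of the 17 urothelial and carcinoma markers, the keratins KRT7, KRT8 and KRT18 and the mesenchymal filament VIM lay between 237 and 1630 FPKM in all 6 libraries, and PPARG, a urothelial transcription factor, was at 9.81 to 14.3 FPKM. KRT20, the uroplakins UPK1A, UPK1B and UPK2, CDH1 (E-cadherin), TP63 and GATA3 were under 1 FPKM in every library. The rest of the list, KRT5, KRT19, EPCAM, FOXA1 and UPK3A, reached 1 FPKM in at least 1 library.

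A single library, shDLGAP5-1 replicate 3, stood apart for transcripts of white blood cells. Over 21 leukocyte markers the summed level was 9.19 to 781 FPKM in the shDLGAP5-1 libraries, the highest being replicate 3, and 10.2 to 33.0 FPKM in the shNC-1 libraries. In shDLGAP5-1 replicate 3, 12 of the 21 reached 1 FPKM, among them LYZ (lysozyme), SPI1 (a myeloid transcription factor) and PTPRC (CD45), against 1 and 2 in the other shDLGAP5-1 libraries and 2 to 3 in the shNC-1 libraries. The T and B cell markers CD3D, CD3E, CD2 and MS4A1 were listed at 0 in all libraries. For that reason the log2 fold changes of the tested members are also given without this library. They were then −0.27 for CD274, −0.16 for PDCD1LG2, 0.20 for CD47 and 0.17 for NT5E, and the rest are given with each gene. In bulk RNA, fewer cells of a type and less RNA per cell cannot be told apart.

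The promoter windows of 4 members are printed because these genes show the range of behaviour in the set: SIGLEC15 and TNFRSF14 were the members with the highest fold changes, PVR had the lowest, and CD274 is the member whose interferon response is best known. Each window holds 250 bases before and 50 after the start of a RefSeq transcript in GRCh38.p14, printed 5′ to 3′ on the strand of the gene, with motif matches in capitals.
SIGLEC15, chr18:45825425-45825724, plus strand: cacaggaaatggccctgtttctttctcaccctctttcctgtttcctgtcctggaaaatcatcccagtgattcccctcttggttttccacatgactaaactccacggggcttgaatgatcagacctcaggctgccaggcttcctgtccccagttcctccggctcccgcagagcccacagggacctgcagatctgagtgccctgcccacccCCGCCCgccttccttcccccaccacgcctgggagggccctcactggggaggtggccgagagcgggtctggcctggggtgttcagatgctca
TNFRSF14, chr1:2556121-2556420, plus strand: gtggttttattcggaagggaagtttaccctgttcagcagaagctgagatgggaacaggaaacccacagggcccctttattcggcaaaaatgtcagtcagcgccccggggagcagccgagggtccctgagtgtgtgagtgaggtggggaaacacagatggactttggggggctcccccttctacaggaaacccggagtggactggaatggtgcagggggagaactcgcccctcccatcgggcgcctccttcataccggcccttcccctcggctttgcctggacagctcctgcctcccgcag
CD274, chr9:5450292-5450591, plus strand: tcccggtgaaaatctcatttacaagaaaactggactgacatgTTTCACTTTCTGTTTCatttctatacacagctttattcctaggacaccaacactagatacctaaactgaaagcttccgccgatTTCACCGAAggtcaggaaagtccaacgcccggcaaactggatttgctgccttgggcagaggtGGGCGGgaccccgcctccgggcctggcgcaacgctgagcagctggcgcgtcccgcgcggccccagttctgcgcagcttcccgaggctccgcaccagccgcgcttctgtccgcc
PVR, chr19:44643660-44643959, plus strand: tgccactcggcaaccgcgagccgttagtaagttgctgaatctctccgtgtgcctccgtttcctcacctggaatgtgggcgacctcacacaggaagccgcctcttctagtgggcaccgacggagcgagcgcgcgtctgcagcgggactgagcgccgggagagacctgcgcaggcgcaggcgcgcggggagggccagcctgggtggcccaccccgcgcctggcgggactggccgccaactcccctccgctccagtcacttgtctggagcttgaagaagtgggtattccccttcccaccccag

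RefSeq windows were matched for 9 of the 10 members, 10 windows in all because CD276 has 2, and PDCD1LG2 was not matched. The windows of TNFRSF14, CD276, CD47, NT5E and LGALS9 lie inside the gene coordinates given below. They therefore do not cover the outermost annotated start of those genes. Motifs were searched on both strands, with overlapping matches kept. The CD274 window held a pair of overlapping matches to the core of the interferon-stimulated response element, GAAA repeated after any 2 bases, which begin 208 and 202 bases before the start. It also held a match to TTCNNNGAA, the gamma-activated site of interferon gamma signalling, 125 bases before the start. The LGALS9 window held the only other interferon core among the member windows, 9 bases before the RefSeq start used. The core was found in 2 of the 10 member windows and in 3.57% of 35116 RefSeq windows, and the gamma-activated site in 1 of 10 and in 7.66%.

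The GC box GGGCGG, bound by Sp1, was in 7 of the 10 member windows and in 44.95% of all windows. SIGLEC15 held 1, on the minus strand, 41 bases before its start, and the PVR and TNFRSF14 windows held none. No member window had an E2F site (TTTGGCGC, TTTCCCGC or TTTCGCGC, in 2.74% of all windows) or an AP-1 site (TGANTCA, in 7.71%). A match is a run of letters and not a shown binding site, and an absent one says only that those letters are not in that window.

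SIGLEC15 (ENSG00000197046, chr18:45825512-45844080, plus strand, GRCh38) encodes a sialic acid-binding receptor of the immunoglobulin superfamily that also acts as a ligand on tumour cells and myeloid cells. Its level was 41.9, 43.0 and 38.8 FPKM in shDLGAP5-1 replicates 1 to 3, against 12.1, 11.7 and 11.95 FPKM in shNC-1 replicates 1 to 3. All shDLGAP5-1 libraries stood far above all shNC-1 libraries, and the spread within each group was narrow. The means were 41.2 ± 2.18 FPKM in shDLGAP5-1 and 11.9 ± 0.182 FPKM in shNC-1 (SD, n = 3 each), a ratio of 3.46, with a log2 fold change of 1.71 on the log2(FPKM + 1) scale (standard error 0.10, 95% interval 1.48 to 1.93). That fold change ranked 63 from the top of the 12714 genes tested. Without shDLGAP5-1 replicate 3, which had the lowest SIGLEC15 level of its group, the log2 fold change was 1.75. Its place among tested genes by level was the 87.6th percentile in shDLGAP5-1 and the 58.3rd percentile in shNC-1.

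TNFRSF14 (HVEM, ENSG00000157873, chr1:2555639-2565382, plus strand) encodes a receptor of the TNF family that, on tumour or lymphoid cells, is also the ligand of the inhibitory receptor BTLA. It stood at 8.42, 8.66 and 6.93 FPKM in shDLGAP5-1 replicates 1 to 3, against 2.00, 2.50 and 2.82 FPKM in shNC-1 replicates 1 to 3. Every shDLGAP5-1 library was above every shNC-1 library, the lowest in shDLGAP5-1 being replicate 3. The means were 8.001 ± 0.938 FPKM in shDLGAP5-1 and 2.44 ± 0.414 FPKM in shNC-1 (SD, n = 3 each), a ratio of 3.28 and a log2 fold change of 1.39 (95% interval 1.05 to 1.73). It was 1.48 without shDLGAP5-1 replicate 3. An antisense gene, TNFRSF14-AS1, shares 1393 bases with it and had at most 0.177 FPKM, and the use of strand in counting is not given in the sources used here.

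**Figure D1:**
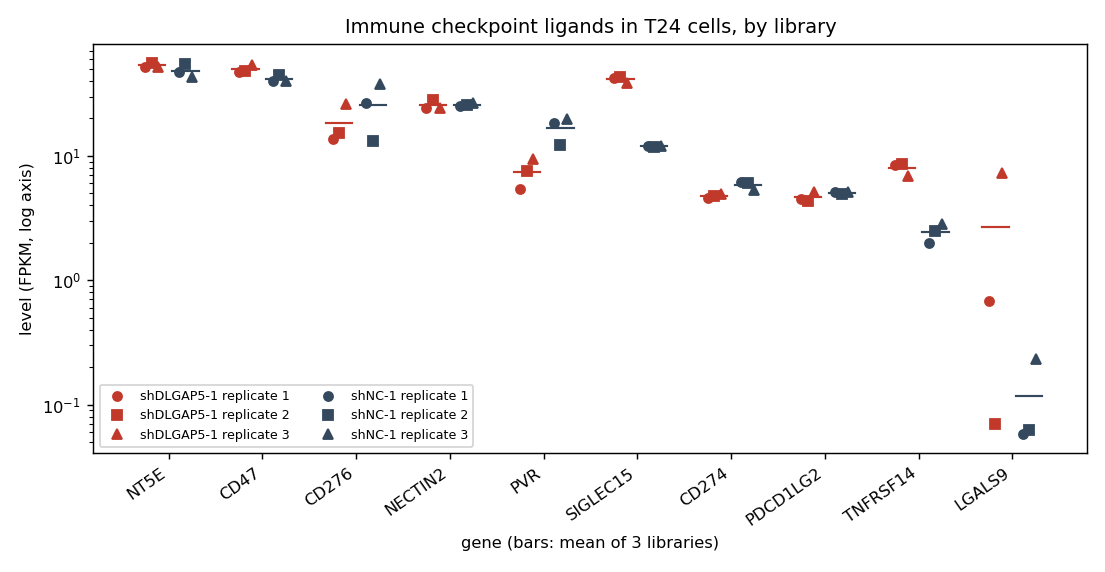
Level of each immune checkpoint ligand in FPKM (log axis) in the 3 shDLGAP5-1 libraries (red, left in each pair) and the 3 shNC-1 libraries (dark blue, right), with bars at the mean of 3 libraries and genes ordered by their shNC-1 mean. SIGLEC15 and TNFRSF14 are higher and PVR lower in all shDLGAP5-1 libraries, and LGALS9 is above 1 FPKM in shDLGAP5-1 replicate 3 only.

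The ligands of PD-1 had smaller fold changes, both below 0 on the log2 scale. CD274 (ENSG00000120217, chr9:5450503-5470566, plus strand) had 4.57, 4.75 and 4.97 FPKM in shDLGAP5-1 replicates 1 to 3 and 6.20, 5.99 and 5.29 FPKM in shNC-1 replicates 1 to 3. All shDLGAP5-1 libraries lay under all shNC-1 libraries, but the closest pair differed by little. The means were 4.76 ± 0.205 FPKM in shDLGAP5-1 and 5.82 ± 0.477 FPKM in shNC-1 (SD, n = 3 each), and the log2 fold change was −0.24 with a 95% interval of −0.51 to 0.02. CD274 lay past the adjusted threshold with median-ratio scaling (log2 fold change −0.34) and with quantile normalization (−0.34), and not in the fit as reported or in the other 12 settings tried. Median-ratio scaling also lowered the median of all genes by 0.10; relative to that median the CD274 value was −0.28 as reported and −0.27 with median-ratio scaling.

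PDCD1LG2 (ENSG00000197646, chr9:5510570-5571254, plus strand) starts 40003 bases after the end of CD274 on the same strand. Its level was 4.49, 4.33 and 5.12 FPKM in shDLGAP5-1 replicates 1 to 3 and 5.14, 4.91 and 5.08 FPKM in shNC-1 replicates 1 to 3. The groups overlapped, and the log2 fold change of −0.10 had a 95% interval of −0.36 to 0.17. CD274 and PDCD1LG2 were among the lowest of the expressed members in both groups, at about the level of a gene in the lower part of the tested range (29.98th percentile for CD274 in shDLGAP5-1 and 37.9th in shNC-1).

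CD276 (ENSG00000103855, chr15:73683966-73714514, plus strand), a B7 family protein abundant on many carcinomas, was the least reproducible of the tested members. Its level was 13.8, 15.3 and 25.9 FPKM in shDLGAP5-1 replicates 1 to 3 and 26.4, 13.2 and 38.1 FPKM in shNC-1 replicates 1 to 3. The groups overlapped, and shNC-1 replicate 2 was the lowest library of all. The coefficient of variation was 36.1% in shDLGAP5-1 and 48.2% in shNC-1, and the log2 fold change of −0.41 had an interval of −1.32 to 0.50. It moved to −0.81 without shNC-1 replicate 2, to −0.67 without shDLGAP5-1 replicate 3 and to −0.08 without shNC-1 replicate 3, so the size of any difference in CD276 was not fixed by these libraries.

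PVR (CD155, ENSG00000073008, chr19:44643798-44666162, plus strand), the poliovirus receptor and high-affinity ligand of TIGIT and CD226, was the member with the lowest fold change. It had 5.43, 7.50 and 9.40 FPKM in shDLGAP5-1 replicates 1 to 3, against 18.4, 12.3 and 19.7 FPKM in shNC-1 replicates 1 to 3. The groups did not overlap, with shNC-1 replicate 2 nearest to the shDLGAP5-1 libraries. The means were 7.44 ± 1.98 FPKM in shDLGAP5-1 and 16.8 ± 3.96 FPKM in shNC-1 (SD, n = 3 each), a ratio of 0.444 and a log2 fold change of −1.07 (95% interval −1.62 to −0.53), which ranked 171 from the bottom of all genes tested.

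The PVR value was −1.24 without shDLGAP5-1 replicate 3, and over all settings it ran from −1.27 to −0.89. It missed the adjusted threshold of 0.05 with no filter on low values (−1.07) and when 1 of these libraries was left out: shDLGAP5-1 replicate 2 (−1.09), shNC-1 replicate 1 (−0.998) or shNC-1 replicate 3 (−0.95). PVR shares 2028 bases at its end with AC243964.3, an unreviewed transcript on the same strand, at 3.67 to 4.33 FPKM in all 6 libraries, and 3885 bases with CEACAM19, at 1.21 to 1.39 FPKM in shDLGAP5-1 and 0.265 to 0.466 FPKM in shNC-1. How reads in the shared bases were assigned is not given in the sources used here, so the PVR values are uncertain to that extent. In each group PVR and CD276 put the libraries in the same order, with shDLGAP5-1 replicates 1 and 3 as the lowest and highest and shNC-1 replicates 2 and 3 as the lowest and highest; whether they share a cause was not tested.

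NECTIN2 (CD112, ENSG00000130202, chr19:44846175-44889223, plus strand), the partner of PVR at TIGIT and CD226 and a ligand of PVRIG, lies 180012 bases beyond PVR. It had 24.04, 28.02 and 24.3 FPKM in shDLGAP5-1 replicates 1 to 3 and 25.4, 25.7 and 26.4 FPKM in shNC-1 replicates 1 to 3. The shNC-1 values all fell inside the range of the shDLGAP5-1 values. The log2 fold change was −0.02 (95% interval −0.26 to 0.22). Its sign turned to 0.03 with quantile normalization, 0.02 without shDLGAP5-1 replicate 1 and 0.01 without shDLGAP5-1 replicate 3.

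CD47 and NT5E were the most abundant members in both groups. CD47 (ENSG00000196776, chr3:108043091-108091862, minus strand), the ligand of SIRPA on macrophages, had 47.3, 48.4 and 53.7 FPKM in shDLGAP5-1 replicates 1 to 3 and 40.3, 45.1 and 39.8 FPKM in shNC-1 replicates 1 to 3. All shDLGAP5-1 libraries were above all shNC-1 libraries, with a small gap. The log2 fold change was 0.25 (95% interval 0.01 to 0.50), did not pass the adjusted threshold in the fit as reported or in any of the 14 other settings, and was 0.13 with median-ratio scaling and 0.14 with same-total scaling.

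NT5E (CD73, ENSG00000135318, chr6:85449584-85495791, plus strand), the enzyme that turns AMP into adenosine at the cell surface, had 51.8, 56.2 and 51.8 FPKM in shDLGAP5-1 replicates 1 to 3 and 46.9, 54.7 and 42.7 FPKM in shNC-1 replicates 1 to 3. The groups overlapped because shNC-1 replicate 2 was higher than a pair of shDLGAP5-1 libraries. The log2 fold change was 0.15, with a 95% interval of −0.13 to 0.43.

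LGALS9 (galectin-9, ENSG00000168961, chr17:27629798-27649560, plus strand), a sugar-binding protein that engages TIM-3 on T cells, had 0.683, 0.0701 and 7.23 FPKM in shDLGAP5-1 replicates 1 to 3 and 0.0575, 0.0627 and 0.234 FPKM in shNC-1 replicates 1 to 3. Only shDLGAP5-1 replicate 3, the library with leukocyte transcripts, exceeded 1 FPKM, and the groups overlapped. At the estimated depths these levels stand for about 412 fragments in that library and for 3 to 29 fragments in each of the other 5. LYZ was highest in the same library, at 11.9, 0.937 and 686 FPKM in shDLGAP5-1 replicates 1 to 3 and 2.48, 0.598 and 21.1 FPKM in shNC-1 replicates 1 to 3. SPI1 had 20.7 FPKM in shDLGAP5-1 replicate 3 and at most 0.567 FPKM elsewhere, and the myeloid Siglec CD33 had 9.07 FPKM there and at most 0.316 FPKM elsewhere. The part of leukocyte transcripts in the LGALS9 value was not tested, and no fold change is given for this gene.

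**Figure D2:**
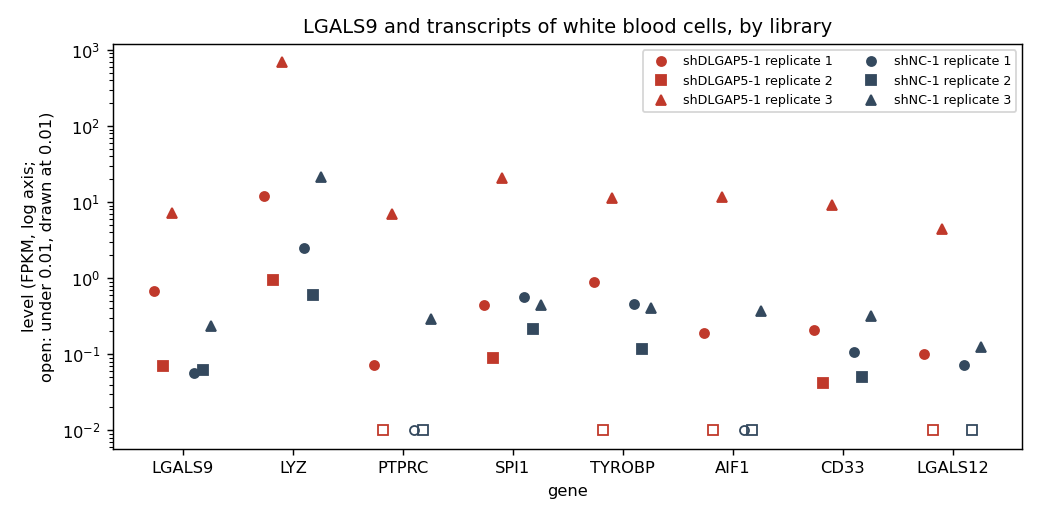
Level of LGALS9 and of 7 genes expressed in white blood cells, in FPKM (log axis), in each shDLGAP5-1 library (red) and shNC-1 library (dark blue); open symbols are values under 0.01, drawn at 0.01. All 8 genes are highest in shDLGAP5-1 replicate 3.

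In the fit over all genes, 3 of the 9 tested members passed the adjusted p threshold of 0.05, SIGLEC15 and TNFRSF14 higher and PVR lower, and 6 did not. Of all genes tested, 24.8% passed, 15.3% as higher and 9.52% as lower. Members whose groups did not overlap numbered 3 higher (SIGLEC15, TNFRSF14 and CD47) and 2 lower (PVR and CD274), where 25.6% of all genes tested did so as higher, 18.3% as lower and 43.9% in either direction. Because the set was chosen with this contrast in view, nothing is read from these shares. The share of passing genes that were higher was 61.6% as reported, 42.3% with median-ratio scaling, 48.1% with same-total scaling, 50.04% once a trend with transcript length was removed and 50.8% with quantile normalization.

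**Figure D3:**
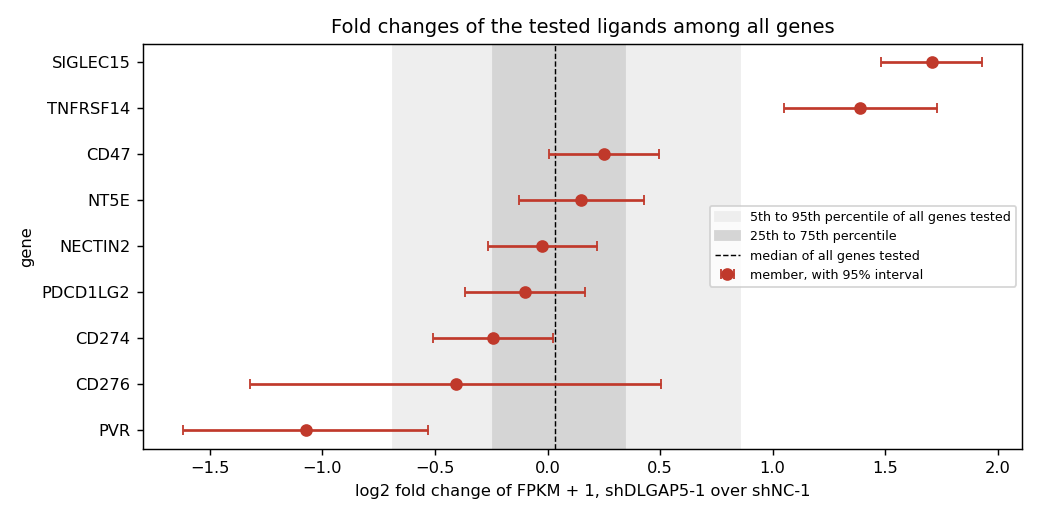
Log2 fold change of FPKM + 1, shDLGAP5-1 over shNC-1, for the 9 tested ligands (points, with 95% intervals from the limma fit), over bands that hold the central parts of the fold changes of 12714 genes. SIGLEC15, TNFRSF14 and PVR lie outside the band from the 5th to the 95th percentile (−0.69 to 0.85), and the other 6 lie inside it.

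Since FPKM are scaled to transcript length, the members can be ordered by level. In shDLGAP5-1 the order of means was NT5E, CD47, SIGLEC15, NECTIN2, CD276, TNFRSF14, PVR, CD274, PDCD1LG2 and LGALS9. In shNC-1 it was NT5E, CD47, CD276, NECTIN2, PVR, SIGLEC15, CD274, PDCD1LG2, TNFRSF14 and LGALS9. In shDLGAP5-1 the neighbours NT5E and CD47, NECTIN2 and CD276, TNFRSF14 and PVR, CD274 and PDCD1LG2, and PDCD1LG2 and LGALS9 overlapped between libraries. In shNC-1 NT5E overlapped with CD47 and CD276 with NECTIN2, and the other neighbours did not overlap. SIGLEC15 thus stood 3rd in every shDLGAP5-1 library and 6th in every shNC-1 library.

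Summed over the 10 ligands, the level was 215.6 ± 12.9 FPKM in shDLGAP5-1 and 183.6 ± 8.01 FPKM in shNC-1 (SD, n = 3 each). SIGLEC15 made up 19.2% ± 1.95 of that sum in shDLGAP5-1 and 6.50% ± 0.240 in shNC-1. PVR made up 3.42% ± 0.719 in shDLGAP5-1 and 9.09% ± 1.84 in shNC-1, and TNFRSF14 3.73% ± 0.609 in shDLGAP5-1 and 1.33% ± 0.204 in shNC-1. NT5E and CD47 were the largest parts, with 24.8% and 23.1% in shDLGAP5-1 and 26.3% and 22.8% in shNC-1. The total FPKM of all genes also differed, with 431491 to 487559 in the shDLGAP5-1 libraries and 413001 to 435077 in the shNC-1 libraries. The part of these totals in the ligand sums was not tested. The ligand sum of shDLGAP5-1 replicate 3, the library with leukocyte transcripts, includes 7.23 FPKM of LGALS9.

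**Figure D4:**
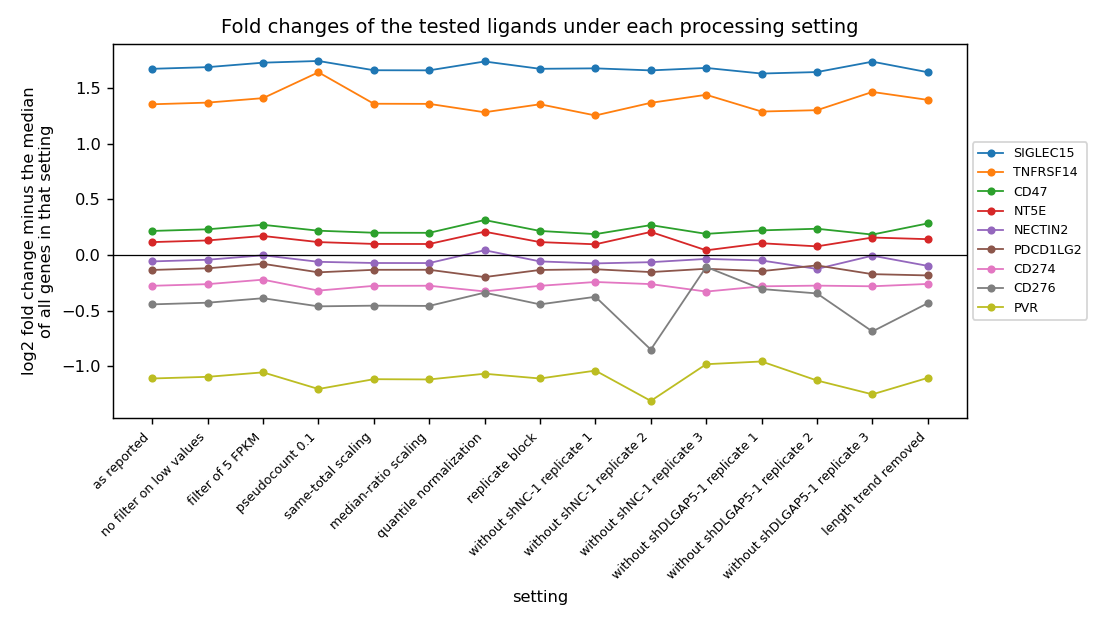
Log2 fold change of each tested ligand, shDLGAP5-1 over shNC-1, less the median of all genes, as reported and under 14 other processing settings. SIGLEC15 and TNFRSF14 lie at the top and PVR at the bottom in each of these settings, and CD276 moves most when single libraries are left out.

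The log2 fold change of SIGLEC15 ran from 1.59 to 1.78 over 14 other settings and that of TNFRSF14 from 1.27 to 1.68. The genes whose pattern over the 6 libraries was most like that of SIGLEC15, by Pearson's r of log2(FPKM + 1) among 8374 tested genes with a mean of at least 5 FPKM, were ABTB1 (r = 0.999), FAM210B (r = 0.999) and EXD3 (r = 0.999). EXD3 had 15.5, 15.3 and 14.3 FPKM in shDLGAP5-1 replicates 1 to 3 and 3.71, 3.78 and 4.10 FPKM in shNC-1 replicates 1 to 3, a fold change close in size to that of SIGLEC15. For CD274 they included DSG2 (r = 0.997) and GNG12 (r = 0.992). DSG2, a desmosomal cadherin, had 30.3, 31.6 and 34.97 FPKM in shDLGAP5-1 replicates 1 to 3 and 50.8, 48.7 and 40.0 FPKM in shNC-1 replicates 1 to 3. These r describe 6 points that fall into the 2 groups, so a difference between the groups is enough to make them high.

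The receptors that the ligands bind on immune cells were at or near 0. All 15 receptor genes, among them PDCD1 (PD-1), TIGIT, CD226, CD96, PVRIG, HAVCR2 (TIM-3), BTLA and CD160, were under 1 FPKM in every library. 8 of them, including PDCD1, TIGIT, CD96 and PVRIG, were listed at 0 in all libraries, and the highest value of any was 0.600 FPKM. SIRPA, the receptor of CD47, differed from these: it had 15.5 ± 2.63 FPKM in shDLGAP5-1 and 16.0 ± 0.244 FPKM in shNC-1 (SD, n = 3 each; log2 fold change −0.06, limma adjusted p = 0.797). Of the 14 other Siglec genes none could be tested, and 12 were under 1 FPKM in every library. CD33 and SIGLEC12 (2.08 FPKM) passed that level only in shDLGAP5-1 replicate 3. TNFSF14 (LIGHT) and LTA, ligands of TNFRSF14, were under 1 FPKM in all libraries.

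Genes of the surrounding pathways were counted from lists drawn up with earlier results of these data known. Each list count below stands beside 15.3% of all genes tested as higher and 9.52% as lower, and nothing is read from it. Of 188 such genes 101 were tested, of which 23 were higher and 12 lower at adjusted p under 0.05, or 34.7% against 24.8% of all genes tested, with a median log2 fold change of 0.12 against 0.03. The higher genes include BTN3A3, ADORA1, CLEC2D and IDO1, which passed the filter on low values only through the shDLGAP5-1 libraries. No support is drawn from the counts and shares that hold them. Without single libraries the count of 35 fell to 16 (shNC-1 replicate 2), 21 (shNC-1 replicate 3) and 22 (shNC-1 replicate 1). The split into higher and lower genes moved with the scaling. There were 20 higher and 13 lower with quantile normalization and 19 higher and 19 lower with median-ratio scaling. With same-total scaling, which sets all libraries to 1 total, there were 14 higher and 14 lower. Of all genes that passed, 61.6% were higher as reported, 50.8% with quantile normalization, 42.3% with median-ratio scaling and 48.1% with same-total scaling. The splits are therefore not read as particular to the lists. Of the calls given with a p for single genes, same-total scaling ended those of ADA, CMTM6, HIP1R, IFNGR2, TNFRSF9 and VSIR. Median-ratio scaling ended those of CMTM6 and HIP1R, and quantile normalization that of TNFRSF9. Changes of these genes are log2 fold changes, shDLGAP5-1 over shNC-1, also where a value follows a gene in parentheses.

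Regulators of CD274 transcription, which are mainly parts of the interferon pathway, had 6 of 20 tested genes higher and 1 lower, with a list median of 0.22. IRF1, the interferon-induced factor that acts at the CD274 promoter, had 21.9 ± 2.61 FPKM in shDLGAP5-1 and 11.8 ± 1.74 FPKM in shNC-1 (SD, n = 3 each; log2 fold change 0.84, limma adjusted p = 0.00764). IRF2 (0.63) and IFNGR2, a chain of the interferon gamma receptor (0.53), also rose, and both missed the threshold without shNC-1 replicate 2 (adjusted p = 0.0506 and 0.0559). JUN, part of AP-1, fell by 0.63 (limma adjusted p = 0.00504). The list count was 2 without shNC-1 replicate 2.

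Regulators of CD274 protein had 2 of 18 tested genes higher and 1 lower, with a list median of −0.19. CMTM6, which keeps PD-L1 at the cell surface (0.36, limma adjusted p = 0.0480), and HIP1R, which sends PD-L1 to lysosomes (0.43, limma adjusted p = 0.0333), rose and passed narrowly. CMTM6 missed the threshold when any single library was left out (adjusted p 0.0721 to 0.140). HIP1R missed it when any library other than shNC-1 replicate 1 was left out (adjusted p 0.0547 to 0.129). The list count was 0 or 1 in each fit with 1 library left out.

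Among 7 tested B7 and butyrophilin ligands, 2 were higher and 1 lower. BTN2A1, a butyrophilin sensed by gamma delta T cells, fell to 6.14 ± 0.451 FPKM in shDLGAP5-1, against 9.98 ± 0.376 FPKM in shNC-1 (SD, n = 3 each; log2 fold change −0.62, limma adjusted p = 0.00844). VSIR (VISTA) rose by 0.61 (limma adjusted p = 0.0264). Its highest value, 11.2 FPKM, was in shDLGAP5-1 replicate 3, the library with leukocyte transcripts, and without that library the rise was 0.48. BTN3A3 had 2.61 ± 0.850 FPKM in shDLGAP5-1 and 1.16 ± 0.235 FPKM in shNC-1 (SD, n = 3 each). BTN3A3 passed the filter on low values only through the shDLGAP5-1 libraries, so no p is given, although it is counted as higher. VSIR missed the threshold without any single shNC-1 library or shDLGAP5-1 replicate 2 (adjusted p up to 0.0979). The count in the list was 1 without any single shNC-1 library or shDLGAP5-1 replicate 2. Of the nectins and their partners, 1 of 4 tested genes was higher, CADM4, an adhesion molecule of the nectin-like family (0.74, limma adjusted p = 0.00730), and none was lower. NECTIN1 (−0.08), NECTIN3 (−0.05) and AFDN, the actin linker of nectins (−0.12), did not pass.

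For the CD47 axis, 1 of 8 tested genes was higher and 1 lower. QPCT, a glutaminyl cyclase related to QPCTL, the enzyme that modifies CD47 for SIRPA binding, had 9.58 ± 1.48 FPKM in shDLGAP5-1 and 4.26 ± 0.396 FPKM in shNC-1 (SD, n = 3 each; log2 fold change 1.00, limma adjusted p = 0.00430). APMAP fell by 0.36 (limma adjusted p = 0.0297), a call lost when any library other than shDLGAP5-1 replicate 1 was left out (adjusted p 0.0533 to 0.125). CALR, the engulfment signal opposed by CD47 (−0.33), and THBS1, a ligand of CD47 (−0.52), did not pass as reported. THBS1 passed without shNC-1 replicate 3 (adjusted p = 0.0402), and with median-ratio scaling (0.0267), quantile normalization (0.0217) or the length trend removed (0.0430). CALR passed as lower in those 3 settings (adjusted p 0.0352, 0.0385 and 0.0128) and with same-total scaling (0.0244). The list count of 2 was 3 with same-total scaling, 4 with median-ratio scaling or quantile normalization and 5 with the length trend removed. It was 1 with the replicate block and without shNC-1 replicates 1 or 2 or shDLGAP5-1 replicates 2 or 3.

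Beside NT5E, the adenosine pathway had 2 of 8 tested genes higher and 1 lower. ADA, which degrades adenosine, was at 4.405 ± 0.478 FPKM in shDLGAP5-1 and 2.60 ± 0.176 FPKM in shNC-1 (SD, n = 3 each; log2 fold change 0.58, limma adjusted p = 0.0148). ADK, adenosine kinase, fell by 0.68 (limma adjusted p = 0.0490). ADORA1, an adenosine receptor, had 2.03 ± 0.323 FPKM in shDLGAP5-1 and 0.975 ± 0.207 FPKM in shNC-1 (SD, n = 3 each). ADORA1 passed the filter on low values only through the shDLGAP5-1 libraries, so no p is given, although it is counted as higher. ADA missed the threshold without any single shNC-1 library (adjusted p 0.0514 to 0.0617), and ADK without any single library (0.0519 to 0.124). The count of 3 was 0 without shNC-1 replicate 1 or shNC-1 replicate 3.

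Where LGALS9 could not be tested, LGALS3, galectin-3, was the 1 gene that rose of 6 tested galectins and glycan partners, with 39.5 ± 1.61 FPKM in shDLGAP5-1 and 22.9 ± 0.213 FPKM in shNC-1 (SD, n = 3 each; log2 fold change 0.76, limma adjusted p = 0.00247). LGALS3BP, a galectin-3 ligand (0.57), passed without shDLGAP5-1 replicate 1 (adjusted p = 0.0164), and MGAT5, which builds the glycans that galectins bind (−0.66), did so once the length trend was removed (adjusted p = 0.0236), with median-ratio scaling (0.0345) and when shDLGAP5-1 replicate 3 was left out (0.0474). Neither passed in the fit as reported.

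TNF superfamily costimulators, the family of TNFRSF14, had 4 of 7 tested genes higher and none lower, with a median of 0.57. Of all genes tested, 15.3% were higher and 9.52% lower. The list count was 3 with same-total scaling, quantile normalization, the 5 FPKM filter, no filter or the replicate block. It was also 3 without shNC-1 replicates 2 or 3 or shDLGAP5-1 replicates 1 or 3. LTB, lymphotoxin beta, had 8.64 ± 1.40 FPKM in shDLGAP5-1 and 1.44 ± 0.351 FPKM in shNC-1 (SD, n = 3 each; log2 fold change 1.98, limma adjusted p = 0.000912). CD70, the ligand of CD27, had 86.0 ± 18.6 FPKM in shDLGAP5-1 and 27.97 ± 0.963 FPKM in shNC-1 (log2 fold change 1.57, limma adjusted p = 0.00129). TNFSF9, the 4-1BB ligand, rose by 0.98 (limma adjusted p = 0.00529), and its receptor TNFRSF9 by 0.57 (limma adjusted p = 0.0268). The TNFRSF9 call was lost without shNC-1 replicates 2 or 3 or shDLGAP5-1 replicates 1 or 3 (adjusted p 0.0524 to 0.109).

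Siglecs bind sialic acids, and 16 genes for the synthesis and transfer of sialic acid were tested, of which 1 was higher and 4 lower. ST3GAL6, a sialyltransferase, had 5.97 ± 0.681 FPKM in shDLGAP5-1 and 1.56 ± 0.334 FPKM in shNC-1 (SD, n = 3 each; log2 fold change 1.45, limma adjusted p = 0.00129). NANS, which makes sialic acid (−0.55, limma adjusted p = 0.0153), CMAS, which activates it (−0.43, limma adjusted p = 0.0211), and ST3GAL1, another sialyltransferase (−0.61, limma adjusted p = 0.0245), fell. NANS missed the threshold without shNC-1 replicate 2 (adjusted p = 0.0652), CMAS without any single shNC-1 library (0.0641 to 0.0808), and ST3GAL1 without any single shNC-1 library or shDLGAP5-1 replicate 2 (0.0577 to 0.0904). The count of 5 was 1 without shNC-1 replicate 2 and 2 without shNC-1 replicate 1 or shNC-1 replicate 3.

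A list of natural killer cell ligands, which also holds the enzyme IDO1, had 3 of 7 tested genes higher and 3 lower. HLA-E, which binds the inhibitory receptor NKG2A, had 151.9 ± 6.52 FPKM in shDLGAP5-1 and 96.7 ± 3.04 FPKM in shNC-1 (SD, n = 3 each; log2 fold change 0.65, limma adjusted p = 0.00458). CLEC2D, the ligand of the natural killer receptor CD161, had 2.11 ± 0.692 FPKM in shDLGAP5-1 and 0.368 ± 0.146 FPKM in shNC-1. IDO1, which depletes tryptophan, had 1.47 ± 0.391 FPKM in shDLGAP5-1 and 0.112 ± 0.0587 FPKM in shNC-1. These 2 genes passed the filter on low values only through the shDLGAP5-1 libraries, so no p is given for them, although both are among the 3 counted as higher. ULBP3, a ligand of the activating receptor NKG2D, fell to 2.30 ± 0.235 FPKM in shDLGAP5-1, against 4.37 ± 0.295 FPKM in shNC-1 (SD, n = 3 each; log2 fold change −0.70, limma adjusted p = 0.00724).

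**Figure D5:**
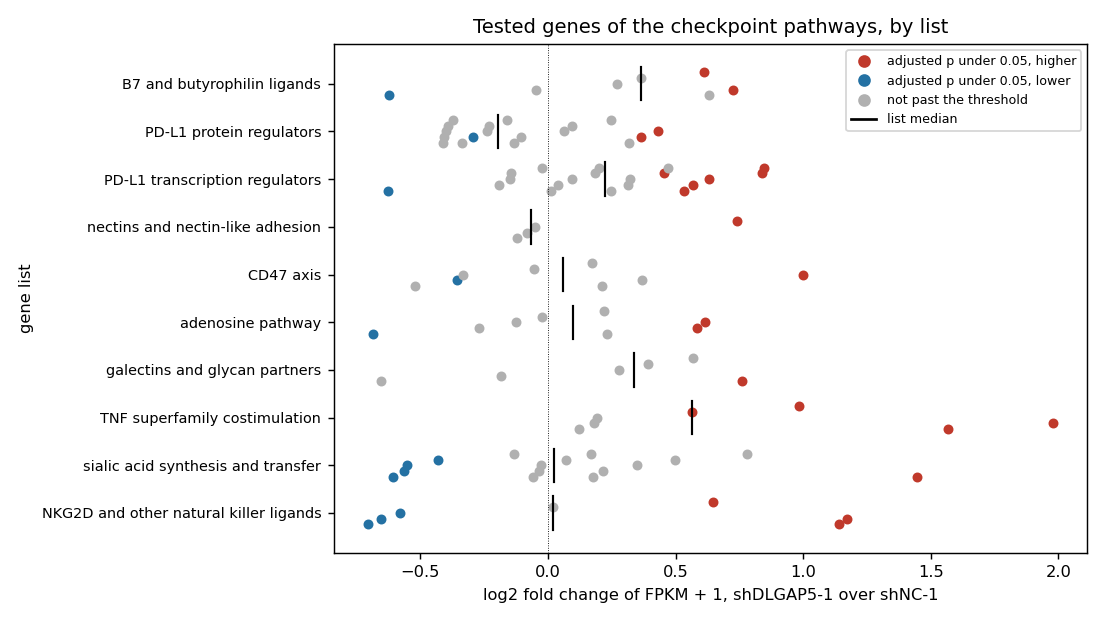
Log2 fold change of FPKM + 1, shDLGAP5-1 over shNC-1, of the tested genes in 10 lists around the ligands, with red and blue points for genes past an adjusted p of 0.05 and black ticks at the list medians. The medians run from −0.19 for regulators of PD-L1 protein to 0.57 for TNF superfamily costimulation, and the highest point is LTB at 1.98.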

How the data were processed

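Messenger RNA libraries from T24 cells were prepared with an mRNA library kit, per the labels' protocols. The FPKM values were made by the authors, who deposited them as 1 table of 58825 genes, normalized to transcript length and library size as the values show (not whole, unequal totals, low single-exon genes stepping with inverse length); its header names no unit. How reads were aligned, counted and assigned to strands is not given in the sources used here. GENCODE release 29 holds 99.5% of the gene identifiers, with equal GRCh38 coordinates for 87.0% of those. Samples were grouped by their titles. 3 columns carry a construct number and were given to shDLGAP5-1 as the only other group, which the DLGAP5 level checks.

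The test was limma 3.58.1 (R 4.3.3, trended variance) on log2(FPKM + 1), group being the only term, for genes reaching 1 FPKM in 3 or more libraries, with Benjamini-Hochberg adjusted p under 0.05. Fold changes on this scale understate those of low genes. The fit was tested on simulated data. Depth was estimated from the steps of low genes, so counts were not recovered and no count test was run. An exact 0 may be a failed estimate. The members and lists were chosen with earlier results of these data known; of each list, up to 4 tested genes with the smallest p are named, and some genes that the rules name are left out of the text. Alternatives were no filter, a filter of 5 FPKM, a pseudocount of 0.1, other scalings, a replicate block, leaving out each library and, added after seeing the data, removal of a length trend.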

Additional observations from a re-analysis of the deposited data

How the results depend on the processing

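Under 14 other settings the log2 fold change of DLGAP5 ran from −2.58 to −2.19. Of the values for the 9 tested members under these settings, 117 kept direction and side of the threshold, 4 for PVR fell short of it, 2 for CD274 passed it and 3 for NECTIN2 changed sign (0.026 with quantile normalization, −0.091 to 0.016 with 1 library left out, positive without shDLGAP5-1 replicates 1 or 3). With 1 library left out, sign also turned, without passing, for NECTIN3 (−0.156 to 0.039; positive without shNC-1 replicate 1 or shDLGAP5-1 replicate 2), NECTIN1 (−0.270 to 0.048; positive without shNC-1 replicate 2 or shDLGAP5-1 replicate 1) and AFDN (−0.268 to 0.077; positive without shDLGAP5-1 replicate 1). The 3155 genes called as reported became 2071 with no filter, where 31433 genes were tested, and 1335 to 3141 with 1 library left out. The 35 called pathway genes, 23 higher and 12 lower, became 23 with no filter (15 higher), 15 higher with the 5 FPKM filter, 14 higher with same-total scaling, 19 lower with median-ratio scaling and 20 lower with the length trend removed. With 1 library left out they ran from 16 to 32, the higher ones from 12 to 22 and the lower ones from 4 to 10. The members called ran from 2 to 3 with 1 library left out, 2 with no filter and 4 with median-ratio scaling or quantile normalization. Since the members were chosen by their values in these libraries, their counts and sides of the threshold describe the fit and test nothing. Replicate numbers gave no sign of pairing, which does not exclude it. Deviations of same-numbered libraries correlated at −0.155, 0.021 and −0.157, and those of differently numbered ones at −0.065 to 0.193. With the replicate block, 1464 genes and 16 pathway genes were called (13 higher, 3 lower), and 3 members. The cause of these moves was not tested. LGALS9 rests on only 3 to 29 estimated fragments in 5 libraries.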
